A study of Mus musculus with 4 samples.

Results

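The VEGF and angiopoietin genes described here are 10 members of the 2 signalling families that build and maintain blood and lymph vessels. They were chosen by gene symbol, with earlier results of these data known, and all 10 were found among the 32285 genes of the count tables. The ligands are Vegfa, Vegfc, Pgf, Angpt1 and Angpt2, and the receptors are Kdr, Flt1, Flt4, Nrp1 and Tek. Each was followed as UMIs (unique molecular identifiers, 1 per captured transcript) by cell lineage in the lung and the synovium of mice with and without a human TNF transgene.

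VEGF-A binds the endothelial receptors VEGFR2 (Kdr), the main driver of endothelial growth and permeability, and VEGFR1 (Flt1), which binds it tightly and in a soluble form holds it back. VEGF-C acts mainly through VEGFR3 (Flt4) on lymphatic endothelium, placental growth factor (Pgf) binds VEGFR1, and neuropilin 1 (Nrp1) is a co-receptor. Angiopoietin 1 (Angpt1), made by perivascular cells, activates TIE2 (Tek) and keeps vessels quiescent, while angiopoietin 2 (Angpt2), made by activated endothelium and mural cells, competes with it in a context-dependent way.

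TNF+ mice (hTNFtg) were C57BL/6 mice with 1 copy of human TNF as a transgene, a line used to model inflammatory erosive arthritis together with pulmonary vascular disease. TNF- mice were their wildtype littermates. Mice of all 4 groups were female, 4 months of age and given no agent. Lungs of 3 to 5 mice per genotype, or synovium of 5 to 10, were pooled, digested with enzymes and sorted for live cells, so the 2 genotypes in the 2 tissues gave 4 groups of 1 library each. With no replicates there was no test, and every interval below is a 95% interval for counting error alone, without the variation between mice or preparations. Human TNF is not in the mouse reference, so the transgene itself was not measured.

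The libraries held 48454234 to 155989523 UMIs, and the kept cells numbered 6998 in TNF- and 9174 in TNF+ lung, with 6200 in TNF- and 3152 in TNF+ synovium. Pairs of libraries shared 5 to 21 barcodes. In the TNF+ synovium 17.6% of barcodes exceeded the limit on mitochondrial UMIs, against 1.41% to 3.78% in the others. Clusters were grouped into lineages by marker genes, and each lineage or cell type name stands for cells like that type. A level is given as CPM, the UMIs of a gene per 1000000 UMIs of the same cells, and is comparable between groups of cells for 1 gene but not between genes. A gene is called past 2-fold where its CPM differed at least 2-fold between TNF+ and TNF-, the interval of the log2 ratio excluded 0 and at least 20 UMIs were counted over both libraries.

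The promoters of the 3 receptors on which most results turn are shown to place these genes on the genome. The runs cover bases 250 to 11 before the RefSeq transcription start (GRCm38.p6), read 5′ to 3′ on the strand of the gene. Capitals mark GGAA or, for the other strand, TTCC, the core letters of the sites bound by ETS transcription factors, which include regulators of endothelial genes. The Kdr window lies at chr5:75978466-75978705 (minus strand), that of Flt1 at chr5:147726022-147726261 (minus strand) and that of Tek at chr4:94739039-94739278 (plus strand), each directly upstream of its gene.
Kdr: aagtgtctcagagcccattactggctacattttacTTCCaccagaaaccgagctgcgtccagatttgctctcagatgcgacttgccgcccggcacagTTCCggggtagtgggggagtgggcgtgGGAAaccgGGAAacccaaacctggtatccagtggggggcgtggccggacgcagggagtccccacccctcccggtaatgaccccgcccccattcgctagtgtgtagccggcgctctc
Flt1: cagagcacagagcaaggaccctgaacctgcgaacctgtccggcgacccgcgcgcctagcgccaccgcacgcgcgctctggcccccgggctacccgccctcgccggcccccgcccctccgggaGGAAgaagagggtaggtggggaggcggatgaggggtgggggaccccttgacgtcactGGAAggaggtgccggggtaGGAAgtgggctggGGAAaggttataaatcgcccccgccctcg
Tek: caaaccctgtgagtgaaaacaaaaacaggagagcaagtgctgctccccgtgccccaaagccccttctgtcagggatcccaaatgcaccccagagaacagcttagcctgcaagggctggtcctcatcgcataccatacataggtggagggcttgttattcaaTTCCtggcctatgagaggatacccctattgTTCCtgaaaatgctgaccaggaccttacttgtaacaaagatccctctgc

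Kdr and Flt1 each held 4 such cores and Tek 2. The letters occurred in 92.7% of the 32851 promoter windows of the same length, with a median of 3 per window, and 30.5% of windows held at least 4. Kdr and Flt1 therefore lay in the upper part of the range and Tek below the median, which is a description of letters and says nothing of binding. Windows were matched for 8 of the 10 members, and none was matched for Angpt1 or Angpt2. Over the 10 entries of those 8 genes the count ran from 0 to 6.

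The receptors marked the endothelium, and the share they gave it differed widely between the libraries. Of the summed UMIs of Kdr, Flt1, Flt4 and Tek, endothelial cells held 95.3% in the TNF- lung (95.1 to 95.5), 50.5% in the TNF+ lung (48.8 to 52.2), 67.0% in the TNF- synovium (66.4 to 67.6) and 92.9% in the TNF+ synovium (92.4 to 93.4). The remainder lay mostly in myeloid cells in the TNF+ lung, at 43.0%, and in mesenchyme in the TNF- synovium, at 27.9%. Endothelium made up 2277 of the kept cells in the TNF- lung but 404 in the TNF+ lung, and 706 and 593 in the TNF- and TNF+ synovium. The number of receptor UMIs counted in endothelium was thus 41877 in the TNF- lung and 1667 in the TNF+ lung. Lymphocytes, which should lack vascular receptors, were read for counts that can come from free RNA or from doublets, which were left in. T cells held Kdr at 4.64 CPM in the TNF- lung, 0.85 CPM in the TNF+ lung and 2.08 CPM in the TNF- synovium, with 0 UMIs in the TNF+ synovium. The level varied with the gene and the lymphocyte type. In the TNF- synovium Flt1 was at 14.6 CPM in T cells, 31.8 CPM in NK- or innate lymphoid-like cells and 42.4 CPM in B cells, and in the TNF- lung Tek was at 5.63 CPM in T cells and 20.02 CPM in NK- or innate lymphoid-like cells. The synovial Flt1 UMIs lay in few cells: 21 in 4 of 129 T cells, 57 in 5 of 141 NK- or innate lymphoid-like cells and 33 in 2 of 63 B cells. They are therefore not a level spread over the cells, and the parts of free RNA and doublets were not tested.

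**Figure D1:**
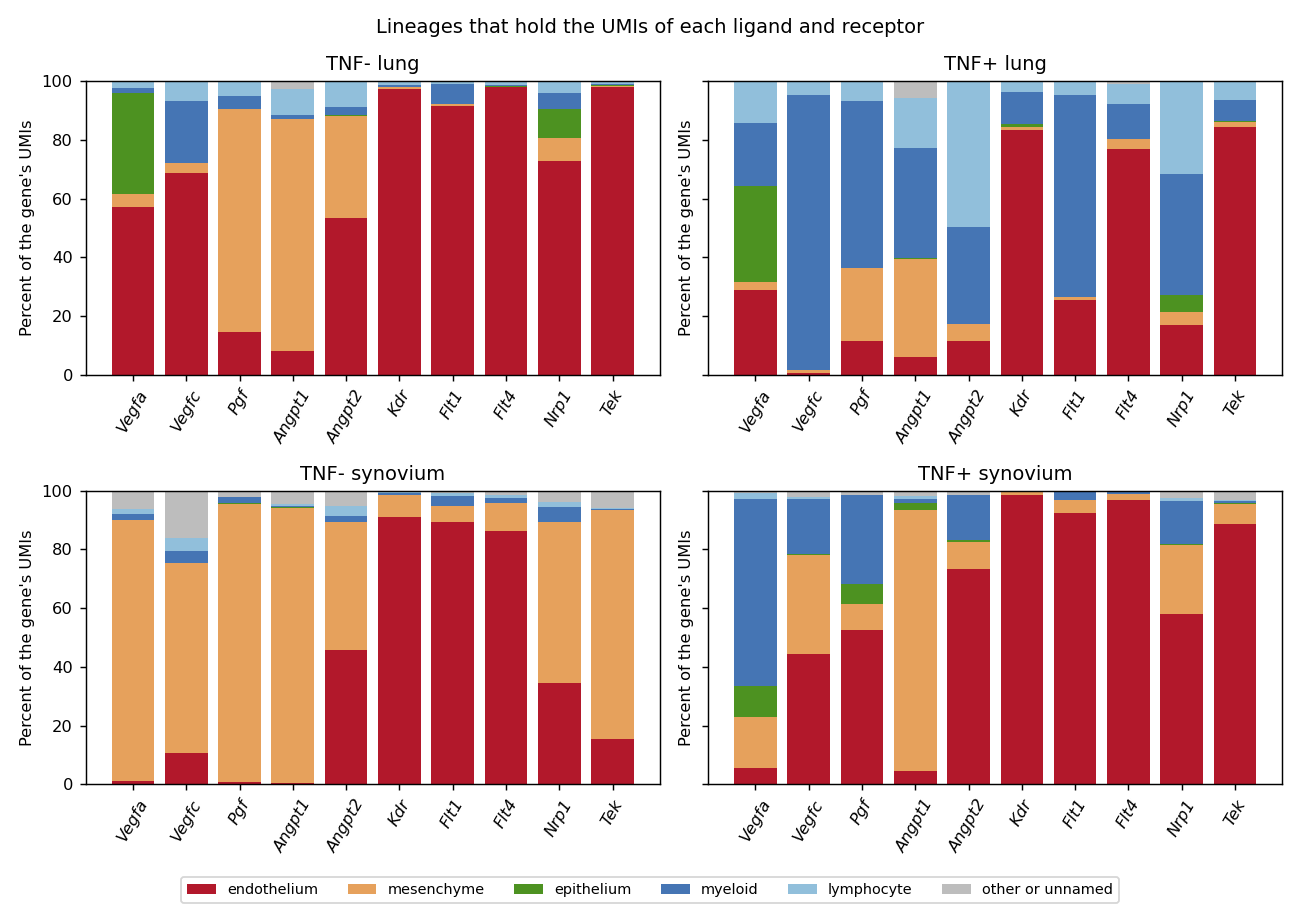
Percent of each gene's UMIs (vertical axis) found in each cell lineage (stacked colours), for the 10 genes in each of the 4 libraries. Endothelium holds most receptor UMIs in the TNF- lung and the TNF+ synovium, myeloid cells hold 93.5% of Vegfc UMIs in the TNF+ lung, and mesenchyme holds 77.9% of Tek UMIs in the TNF- synovium.

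Within the endothelium of the TNF- lung the receptors divided the vessel types among themselves. Aerocyte-like capillary cells, the large thin cells of the gas exchange surface, held Kdr at 2697 CPM (2628 to 2767), against 299.8 CPM in general capillary-like, 312 CPM in arterial-like and 299 CPM in venous-like cells. Tek ran the other way, at 64.5 CPM in aerocyte-like cells against 1370 CPM (1345 to 1395) in general capillary-like and 1383 CPM (1312 to 1458) in arterial-like cells. The Tek intervals of general capillary-like and arterial-like cells overlapped, as did the Kdr intervals of general capillary-like, arterial-like and venous-like cells. Nrp1 was also highest in the aerocyte-like cells, at 3068 CPM, while Flt1 was lower there, at 947 CPM, than in the arterial-like (1509.7 CPM), venous-like (1450 CPM) and general capillary-like (1225 CPM) cells. Flt4 reached 1344 CPM in the 34 lymphatic-like cells, which held Flt1 at 24.1 CPM and 1 UMI of Nrp1.

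The synovium kept part of this arrangement. In the TNF- synovium Kdr was at 978 CPM in capillary-like cells (named from the general capillary markers), 444 CPM in lymphatic-like, 330.1 CPM in venous-like and 40.9 CPM in arterial-like cells. Flt1 was at 3593 CPM in capillary-like, 1620 CPM in venous-like and 1187 CPM in arterial-like cells, with 1 UMI in the 18 lymphatic-like cells. Arterial-like cells were the lowest of the 4 types for Kdr in both synovial libraries and also held the ligand Vegfc, at 355 CPM (TNF-) and 213 CPM (TNF+). In the lung Vegfc was instead high in the venous-like cells of the TNF- library, at 1062 CPM.

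The lineages that held the ligands differed by ligand, tissue and genotype. A share depends on the number of cells in a lineage as well as on their level, and cell numbers differed by genotype. In the lung myeloid cells were 15.6% of TNF- and 54.5% of TNF+ cells, and endothelium 32.5% and 4.40%. In the synovium mesenchyme was 58.0% and 18.8%, and myeloid cells 10.1% and 38.8%. Vegfa UMIs of the TNF- lung lay in endothelium (57.0%) and epithelium (34.3%), and within epithelium at 4039 CPM in alveolar type 1-like cells, the thin cells that face the capillaries, against 77.5 CPM in the surfactant-making alveolar type 2-like cells. The endothelial part was at 676 CPM in arterial-like cells. In the TNF- synovium 88.5% of Vegfa UMIs lay in mesenchyme. In the TNF+ synovium myeloid cells held 63.6% (62.4 to 64.8), mesenchyme 17.4% and epithelium 10.6%. That epithelium numbered 179 cells in TNF+ and 3 in TNF- synovium, and its TNF+ cells held Vegfa at 321 CPM.

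The lineage that held most Vegfc differed by genotype in both tissues, as did the cell make-up given above. Endothelium held 68.7% of its UMIs in the TNF- lung and 0.71% in the TNF+ lung, where myeloid cells held 93.5% (92.8 to 94.1). Of the 5942 Vegfc UMIs of the TNF+ lung, 5521 were in macrophage- or monocyte-like cells. In the synovium mesenchyme held 64.6% in the TNF- library, and endothelium 44.2% with mesenchyme 33.9% in the TNF+ library. Pgf lay in synovial mesenchyme at 94.5% in the TNF- library, and in the TNF+ library 52.5% of it lay in endothelium and 30.2% in myeloid cells.

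Angpt1 kept its mesenchymal source in the synovium, at 93.6% of UMIs in the TNF- and 88.7% in the TNF+ library. In the lung mesenchyme held 78.8% of its UMIs in the TNF- and 33.6% in the TNF+ library. Further sources of Angpt1 in the TNF- lung were megakaryocyte- or platelet-like cells at 297 CPM and NK- or innate lymphoid-like cells at 132 CPM, against 246 CPM and 38.5 CPM in the TNF+ lung. Angpt2 was divided between endothelium and mesenchyme in the TNF- synovium (45.6% and 43.7%), and endothelium held 73.2% in the TNF+ synovium.

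**Figure D2:**
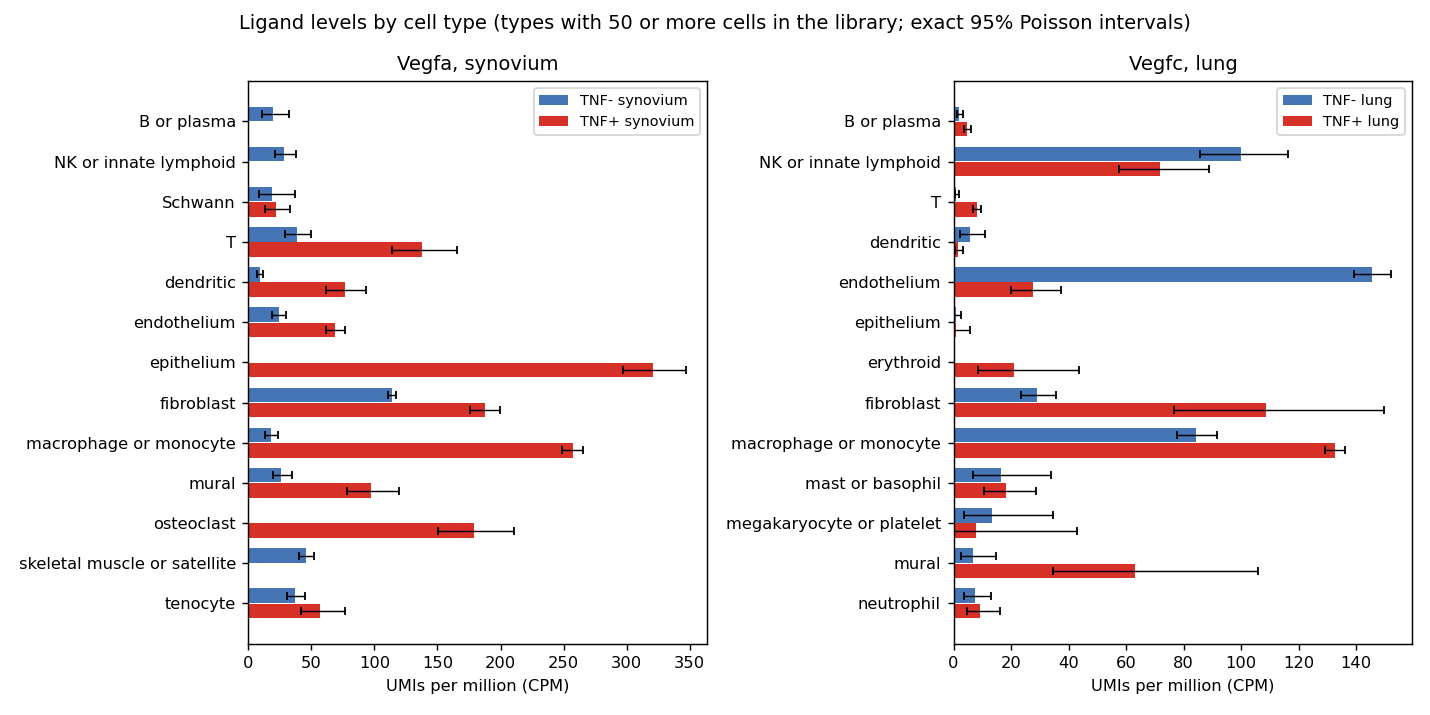
CPM (horizontal axis) of Vegfa in the synovium and Vegfc in the lung by cell type, for types with at least 50 cells, with the TNF- and TNF+ libraries in separate colours and bars for exact 95% Poisson intervals. Synovial macrophage- or monocyte-like cells held Vegfa at 17.8 CPM (TNF-) and 257 CPM (TNF+), and lung macrophage- or monocyte-like cells held Vegfc at 84.4 and 132 CPM.

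Over whole tissue the lung and the synovium differed in what the TNF+ library held of these genes. In the lung 9 of the 10 members were past 2-fold lower in the TNF+ library, and none was higher, where 25.2% of the genes with at least 20 UMIs were lower and 5.5% higher and the median gene lay at -0.32 on the log2 scale. Tek, at 283.5 CPM for TNF- against 5.84 CPM for TNF+ lung, had the lowest ratio, with a log2 ratio of -5.60 (-5.73 to -5.47). Kdr was at 182 and 9.82 CPM, Flt1 at 325 and 22.1 CPM, Flt4 at 26.5 and 1.39 CPM and Vegfa at 156 and 9.56 CPM. Vegfc, the remaining member, was at 54.8 and 70.4 CPM, with a log2 ratio of 0.36. All 5 receptors were thus higher in the TNF- lung, where endothelium was 32.5% of cells against 4.40% in the TNF+ lung. In whole tissue, fewer cells of a type and less RNA per cell cannot be told apart.

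In whole synovium 2 members were past 2-fold higher (11.6% of genes were) and 2 were lower (20.6% of genes were), with the median gene at -0.17 on the log2 scale. Vegfa was at 81.9 CPM for TNF- against 188 CPM for TNF+ synovium, a log2 ratio of 1.20 (1.15 to 1.25). Angpt2 was at 3.43 and 17.6 CPM, a log2 ratio of 2.36 (2.15 to 2.58). The members past 2-fold lower were Angpt1, at 51.4 and 9.89 CPM, and its receptor Tek, at 83.8 and 26.7 CPM. Mesenchyme, which held most UMIs of both in the TNF- synovium, was 58.0% of cells there and 18.8% in the TNF+ synovium. Myeloid cells were 10.1% and 38.8%. As in the lung, whole-tissue values cannot tell fewer cells of a type from less RNA per cell. Kdr (38.5 and 44.0 CPM), Nrp1 (118 and 122 CPM), Pgf (16.7 and 14.7 CPM) and Vegfc (27.9 and 23.0 CPM) had log2 ratios between -0.28 and 0.19.

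Within the synovial endothelium the TNF+ library held more of 3 ligands and less of the receptors Kdr and Flt1, with Nrp1 at the 2-fold limit. Past 2-fold higher were Pgf, Vegfa and Angpt2, 3 of the 10 members beside 7.79% of genes, and past 2-fold lower were Kdr, Flt1 and Nrp1, 3 of the 10 beside 8.97% of genes. Pgf, which binds the receptor Flt1, was at 3.60 CPM for TNF- against 50.7 CPM for TNF+ cells (12 and 255 UMIs), a log2 ratio of 3.81 (2.98 to 4.79). Vegfa was at 24.0 and 68.7 CPM, a log2 ratio of 1.52 (1.16 to 1.89), and Angpt2 at 35.7 and 84.8 CPM, a log2 ratio of 1.25 (0.95 to 1.55). The TNF+ library was above the TNF- library for each of these 3 genes.

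The receptors Kdr and Flt1 ran in the opposite direction. Kdr was at 802 CPM (TNF-) and 284 CPM (TNF+), a log2 ratio of -1.50 (-1.59 to -1.40), and Flt1 at 3036 and 1337 CPM, a log2 ratio of -1.18 (-1.23 to -1.14). The co-receptor Nrp1, at 927 and 463 CPM, lay just past the 2-fold limit with a log2 ratio of -1.002 (-1.08 to -0.92), and kept its place past that limit in 5 of 10 alternative settings, with values from -1.04 to -0.91. Just inside the limit lay Tek, at 297.5 and 155 CPM (log2 ratio -0.94), and Flt4, at 86.8 and 47.9 CPM (-0.86). Vegfc was at 69.1 and 66.8 CPM, a log2 ratio of -0.05 (-0.30 to 0.20).

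TNF+ endothelial cells of the synovium were deeper, with a median of 7455 UMIs against 4337.5 in TNF- cells. Each cell was therefore also thinned to 500 UMIs. The share of cells with a Flt1 UMI was then 72.1% in the TNF- and 44.4% in the TNF+ library (93.2% and 85.3% unthinned), and for Kdr 30.9% and 14.3% (75.9% and 61.7% unthinned). For Pgf the thinned shares were 0.28% (0.03% to 1.02%) and 1.52% (0.70% to 2.86%), with overlapping intervals (0.71% and 11.8% unthinned), and its log2 ratio of 1.84 after thinning was not past 2-fold by the rule. Markers of mural cells summed to 295 CPM for TNF- against 2104 CPM for TNF+ endothelium, with 18 and 19 of 20 markers above 0, and macrophage markers to 653 and 989 CPM. With cluster 25, which held much of the mural signal, left out, the mural sums were 251 and 783 CPM, Pgf had a log2 ratio of 3.80, Angpt2 of 1.32, Kdr of -1.46 and Flt1 of -1.17.

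**Figure D3:**
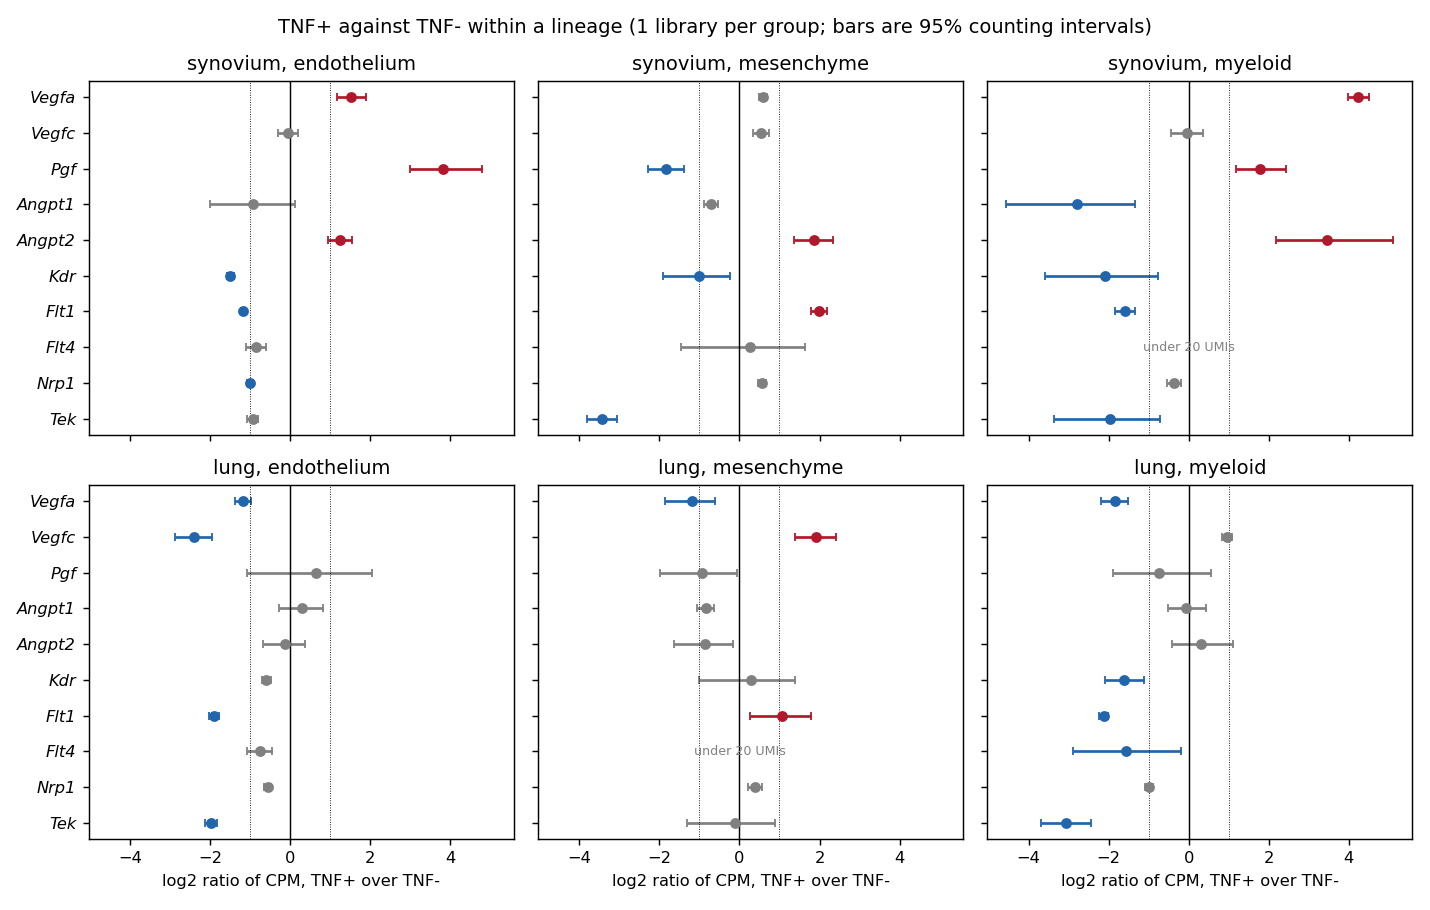
Log2 ratio of CPM, TNF+ over TNF- (horizontal axis), for the 10 genes in endothelium, mesenchyme and myeloid cells of each tissue, with bars for 95% counting intervals and dotted lines at 2-fold. Red points are past 2-fold higher, blue past 2-fold lower and grey neither; Vegfa is at 4.24 in synovial myeloid cells and at -1.85 in lung myeloid cells.

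The receptor differences were not spread evenly over the vessel types of the synovium. In capillary-like cells (542 TNF- and 278 TNF+ cells) Flt1 was at 3593 and 1509.9 CPM, Kdr at 978 and 403 CPM and Tek at 299.9 and 148 CPM. In arterial-like cells (66 and 116 cells) Flt1 was at 1187 and 1367 CPM, a log2 ratio of 0.20 (0.05 to 0.36), and Kdr at 40.9 and 68.3 CPM. Flt1 and Kdr were therefore lower in TNF+ than in TNF- capillary-like cells and not in arterial-like cells. In venous-like cells (79 and 109 cells) 2 of the 8 members with enough UMIs were past 2-fold lower and none higher. The median log2 ratio of the members was -0.83 there and -0.83 in capillary-like cells, where 4 of 9 were lower and 2 higher. In arterial-like cells it was 0.37, with none of 8 lower and 2 higher. Tek was below its TNF- level in each of the 3 types, at 401 and 264 CPM in arterial-like cells and at 234 and 109.7 CPM in venous-like cells. The venous-like class is mixed, since Dcn and Gsn, genes of fibroblasts, were among the leading genes of its main sub-cluster, and a further sub-cluster of 10 cells, 8 of them TNF+, was led by myeloid genes such as Il1b and Cd74.

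The ligands divided by vessel type as well. Vegfa was at 53.6 and 222 CPM in arterial-like cells, a log2 ratio of 2.05 (1.40 to 2.77), and at 16.4 and 29.97 CPM in capillary-like cells, a log2 ratio of 0.87. Pgf was at 3.90 and 57.6 CPM and Angpt2 at 38.2 and 116 CPM in capillary-like cells. In the lymphatic-like cells, which numbered 18 and 27, Pgf had 0 UMIs in the TNF- library and 171 CPM in the TNF+ library, and Angpt2 was at 64.8 and 237 CPM. Capillary-like cells of the 2 genotypes lay mostly in the same cluster but in different sub-clusters of it, with 391 TNF- cells in one sub-cluster and 242 TNF+ cells in another.

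**Figure D4:**
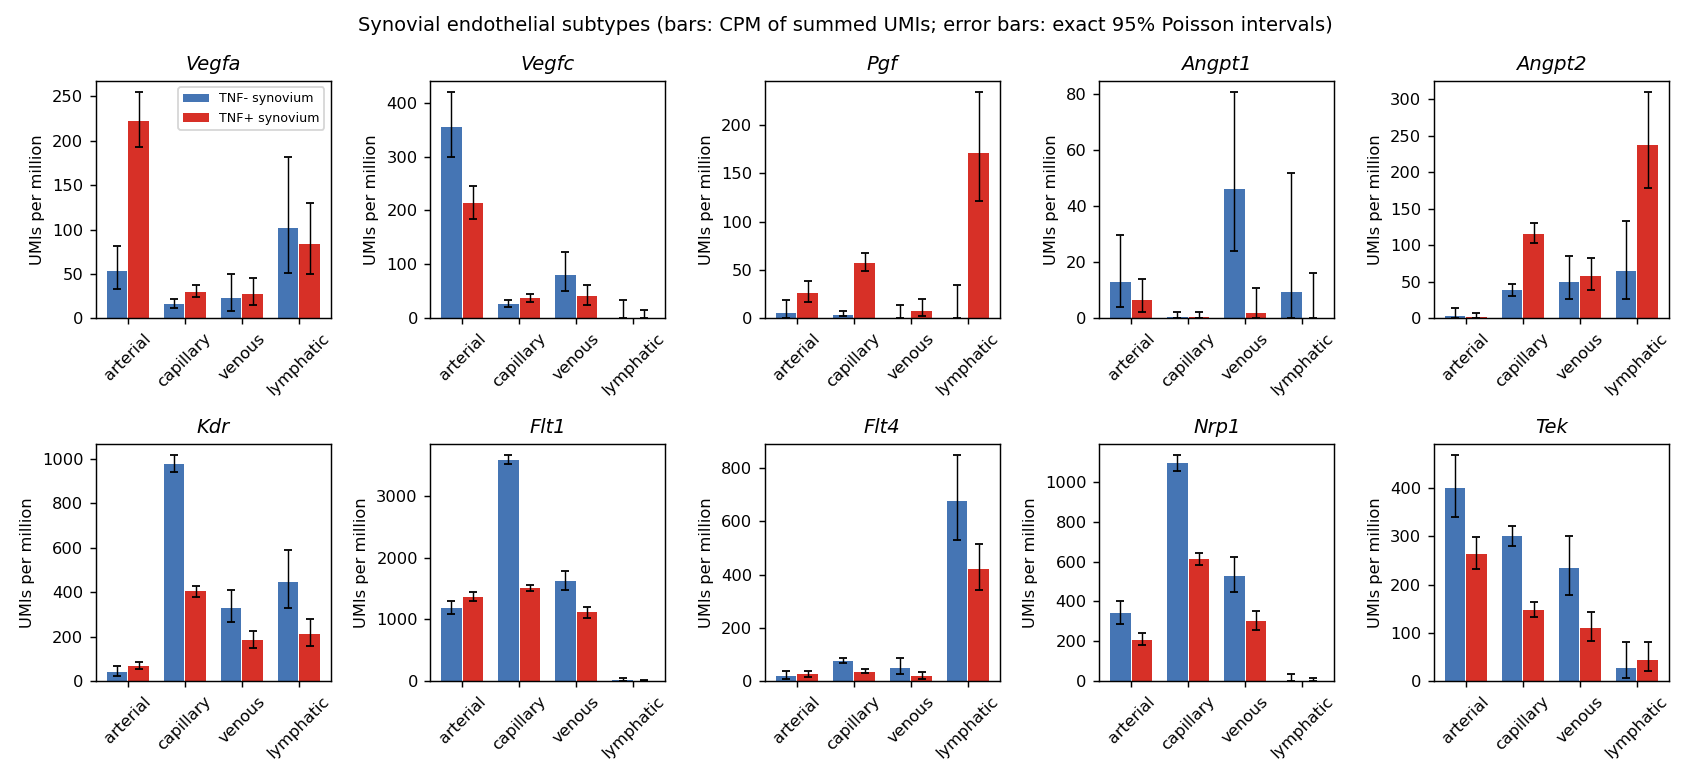
CPM (vertical axis) of the 10 genes in arterial-, capillary-, venous- and lymphatic-like endothelium of the TNF- and TNF+ synovium, with exact 95% Poisson intervals. Flt1 in capillary-like cells is at 3593 CPM (TNF-) and 1509.9 CPM (TNF+), and in arterial-like cells at 1187 and 1367 CPM.

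Among the receptors with at least 20 UMIs, the lowest ratio in the 4 synovial lineages compared was that of Tek in mesenchyme. Tek was at 95.8 CPM for TNF- against 8.90 CPM for TNF+ mesenchyme (4977 and 60 UMIs), a log2 ratio of -3.43 (-3.82 to -3.06), and lay in fibroblast-like cells at 105 and 10.7 CPM. Fibroblast-like cells held 4946 of the 6387 Tek UMIs of the TNF- synovium. The thinned share of mesenchymal cells with a Tek UMI was 4.23% and 0.34% (45.8% and 6.93% unthinned). Past 2-fold lower beside Tek were Pgf, at 23.1 and 6.52 CPM, and Kdr, at 4.18 and 2.08 CPM, so 3 of the 10 members were lower where 16.3% of genes were and the median gene lay at -0.26 on the log2 scale. Past 2-fold higher were Flt1, at 12.2 and 48.5 CPM, and Angpt2, at 2.19 and 8.01 CPM, 2 of the 10 members beside 8.66% of genes. Kdr had 14 UMIs in TNF+ cells and turned to 0.17 with equal weight per cell. Mural-like cells were 292 of the 3593 TNF- and 130 of the 592 TNF+ mesenchymal cells, and mural markers summed to 1078 and 3919.6 CPM over the lineage. Within fibroblast-like cells Angpt2 was at 0.98 and 2.17 CPM and Flt1 at 6.58 and 46.0 CPM. Within mural-like cells Angpt2 was at 33.7 and 47.5 CPM and Flt1 at 138 and 104 CPM. These cells lay in cluster 10 (234 TNF- and 42 TNF+ cells) and cluster 18 (58 and 88 cells). Flt1 was at 206 and 390 CPM in cluster 10 and at 4.61 and 24.0 CPM (3 and 17 UMIs) in cluster 18. It was thus higher for TNF+ in each cluster, though not over both together. Angpt2 was at 39.9 and 101 CPM in cluster 10 and at 21.5 and 32.5 CPM in cluster 18.

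The fibroblast-like cells of the 2 genotypes lay in different clusters, which touches each of these values. Of the TNF+ cells 236 lay in cluster 12, led by Mmp3, Saa3, Mmp13 and Prg4, genes of matrix breakdown, the acute phase and the joint lining, with 3 TNF- cells, while TNF- cells lay mostly in clusters 0, 1 and 3. Flt1 in cluster 12 was at 59.3 CPM (225 UMIs) in the TNF+ library. In cluster 0 it was at 2.45 CPM (TNF-) and 2.46 CPM (TNF+), and in cluster 1 at 13.7 and 10.5 CPM. Tek was at 2.11 CPM in cluster 12, at 92.5 and 44.2 CPM in cluster 0, at 30.3 and 18.0 CPM (12 UMIs) in cluster 1 and at 217 and 81.5 CPM in cluster 3. Tek was past 2-fold lower inside clusters 0 and 3, while in cluster 1 the log2 ratio was -0.75 (-1.71 to 0.07). Without cluster 12 the mesenchymal log2 ratio of Tek was -2.44, that of Flt1 1.505 and that of Kdr -0.04.

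Over the whole synovial mesenchyme Angpt1 and Vegfa lay within 2-fold of their TNF- level, but not within each cluster. Angpt1 was at 70.7 and 43.0 CPM, a log2 ratio of -0.72 (-0.89 to -0.54), and Vegfa at 106 and 160.5 CPM, a log2 ratio of 0.59 (0.50 to 0.69). Within clusters Angpt1 was past 2-fold lower in cluster 0, at 80.1 and 31.9 CPM, and in cluster 1, at 115 and 45.1 CPM, and was at 50.8 CPM in TNF+ cells of cluster 12. Vegfa was past 2-fold higher in cluster 3, at 125 and 372 CPM, and was at 115 and 216 CPM in cluster 0 and at 103 and 122 CPM in cluster 1. In mural-like cells, the pericytes and smooth muscle that wrap vessels, Vegfa was at 25.9 and 97.2 CPM and Nrp1 at 215 and 61.9 CPM. Their clusters 10 and 18 differed in make-up by genotype, with 234 TNF- and 42 TNF+ cells in cluster 10 and 58 and 88 in cluster 18. Nrp1 was at 320 and 213 CPM in cluster 10 and at 7.68 and 19.8 CPM (5 and 14 UMIs) in cluster 18. Vegfa was at 23.5 and 172 CPM in cluster 10 and at 30.7 and 76.3 CPM in cluster 18. Endothelial markers summed to 548 CPM for TNF- against 737 CPM for TNF+ synovial mesenchyme, and their part in the Flt1 value was not tested.

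Synovial myeloid cells had the largest log2 ratio of any member in any lineage of at least 50 cells per library, for Vegfa. Vegfa was at 12.6 CPM for TNF- against 239 CPM for TNF+ myeloid cells (127 and 3959 UMIs), a log2 ratio of 4.24 (3.99 to 4.51). The thinned share of cells with a Vegfa UMI was 0.32% and 8.67% (9.13% and 56.3% unthinned). Angpt2, at 0.50 and 5.43 CPM, and Pgf, at 2.58 and 8.86 CPM, were also past 2-fold higher, so 3 of the 9 members that reached 20 UMIs were higher beside 8.87% of genes. Angpt2 had 5 UMIs in the TNF- cells, none of them in macrophage- or monocyte-like cells, and turned to -0.97 after thinning. Angpt1, Flt1, Kdr and Tek were past 2-fold lower, 4 of the 9 beside 19.4% of genes, with the median gene at -0.13 on the log2 scale. Of these, Flt1 was at 39.6 and 13.2 CPM, and the other 3 were at most at 2.08 CPM in either library.

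Vegfa of the TNF+ synovium lay mainly in 1 macrophage- or monocyte-like cluster. Cluster 4, led by Lyz2, Cd14, Cxcl2 and Il1b, held 753 TNF+ and 9 TNF- cells, and Vegfa was at 296 CPM there in the TNF+ library (3673 UMIs, 286 to 305) and at 114 CPM in the TNF- library (15 UMIs). Cluster 8, with 140 TNF- and 224 TNF+ cells, held Vegfa at 16.8 and 14.7 CPM, a log2 ratio of -0.19 (-1.02 to 0.62). In the dendritic-like cells of cluster 5 it was at 9.32 and 76.4 CPM, and in cluster 21 at 6.31 and 60.6 CPM. TNF+ and TNF- libraries therefore lay together in cluster 8 and apart in clusters 5 and 21. Without cluster 4 the myeloid log2 ratio of Vegfa was 2.61, and those of Angpt2 (0.93) and Flt1 (-0.27) were not past 2-fold. Osteoclast-like cells, the multinucleate cells that resorb bone, are counted as myeloid here. They numbered 113 in the TNF+ and 5 in the TNF- synovium, and the TNF+ cells held Vegfa at 179 CPM and Pgf at 37.7 CPM.

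Synovial lymphocytes also held more Vegfa in the TNF+ library, at 30.2 and 107 CPM, a log2 ratio of 1.83 (1.45 to 2.20). It was the 1 member past 2-fold higher there beside 6.88% of genes, with T cells at 38.2 and 138 CPM. Flt1 and Vegfc were past 2-fold lower, 2 of the 5 members that reached 20 UMIs beside 10.2% of genes, and the median gene lay at 0.15 on the log2 scale. Flt1 rested on 111 and 5 UMIs and turned to 0.57 with doublets removed. Whole-tissue Vegfa was at 81.9 and 188 CPM, and the part of free RNA in the lymphocyte value was not tested. Schwann-like cells of the same libraries held Vegfa at 18.6 and 21.8 CPM.

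In the lung endothelium the TNF+ library held less of 2 receptors and 2 ligands. Flt1 was at 1153 CPM for TNF- against 309 CPM for TNF+ cells, a log2 ratio of -1.90 (-2.04 to -1.77). Tek was at 1073 and 273 CPM, a log2 ratio of -1.98 (-2.12 to -1.84), Vegfc at 145 and 27.5 CPM, a log2 ratio of -2.40 (-2.88 to -1.96), and Vegfa at 344 and 152 CPM, a log2 ratio of -1.18 (-1.38 to -0.99). These 4 of the 10 members were past 2-fold lower beside 5.38% of genes, and none was past 2-fold higher beside 9.18%. Kdr was at 683 and 452 CPM (log2 ratio -0.60), Nrp1 at 1159.8 and 782 CPM (-0.57) and Flt4 at 100.3 and 59.0 CPM (-0.77).

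These lung values rest on TNF+ cells that differ from the TNF- cells in depth and cluster. The median endothelial cell held 767.5 UMIs in the TNF+ lung and 5595 in the TNF- lung, and 381 of the 404 TNF+ cells matched no vessel type. Clusters 14 and 28 held 362 of the TNF+ cells and 19 TNF- cells. Thinned to 500 UMIs, the share of cells with a Tek UMI was 35.9% in the TNF- and 7.43% in the TNF+ lung (74.4% and 26.5% unthinned), and with a Flt1 UMI 40.5% and 9.90% (84.6% and 29.95% unthinned). Endothelial markers summed to 21651 CPM for TNF- against 13697 CPM for TNF+ cells with all 18 above 0, macrophage markers to 557 and 3273 CPM and B cell markers to 460.2 and 2737 CPM, and their part in the differences was not tested. Without cluster 14 the log2 ratio of Tek was -1.86, of Flt1 -1.78, of Vegfc -3.05 and of Vegfa -1.08. The 14 aerocyte-like cells of the TNF+ lung kept the Kdr and Tek pattern of that type, at 1853 CPM and 7.66 CPM (1 UMI).

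Lung mesenchyme was the lung lineage in which Vegfc was past 2-fold higher. Vegfc was at 24.0 and 90.6 CPM there, a log2 ratio of 1.91 (1.40 to 2.42), and Flt1 at 17.1 and 35.5 CPM, a log2 ratio of 1.06 (0.26 to 1.79), so 2 of the 9 members that reached 20 UMIs were higher beside 7.77% of genes. The Vegfc ratio was not past 2-fold with equal weight per cell (0.34) or after thinning (0.41). Vegfa was at 97.6 and 42.7 CPM (394 and 24 UMIs), the 1 member past 2-fold lower beside 5.24% of genes. The Flt1 value rests on 69 and 20 UMIs and was reversed, at -1.40, without the filter on cells. Endothelial markers summed to 509 and 780.1 CPM in these cells and macrophage markers to 2242 and 5146 CPM, and their part in the Flt1 and Vegfc values was not tested. Angpt1 was at 611 and 341 CPM, a log2 ratio of -0.84 (-1.06 to -0.63). Mural-like cells of the lung held Angpt1 at 570 and 189 CPM (509 and 42 UMIs), Angpt2 at 124 and 67.5 CPM (111 and 15 UMIs) and Pgf at 108 and 13.5 CPM (96 and 3 UMIs). The Angpt2 intervals overlapped, at 102 to 150 CPM for TNF- and 37.8 to 111 CPM for TNF+ cells. The median mural-like cell held 6020.5 UMIs in the TNF- lung and 651 in the TNF+ lung.

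Lung epithelium held Vegfa at 815 CPM for TNF- against 272 CPM for TNF+ cells, a log2 ratio of -1.58 (-1.77 to -1.40). Vegfa and Tek (32 UMIs and 1 UMI) were past 2-fold lower, 2 of the 5 members that reached 20 UMIs beside 5.18% of genes, and none was past 2-fold higher beside 10.8%. Alveolar type 1-like cells held Vegfa at 4039 CPM (163 cells) and 2589 CPM (27 cells), and alveolar type 2-like cells at 77.5 and 103 CPM. The lineage value thus differed more than that of either cell type.

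Lung myeloid cells numbered 1092 in the TNF- and 5000 in the TNF+ library. Vegfc, at 59.8 and 116 CPM, had a log2 ratio of 0.95 (0.83 to 1.08), just inside the 2-fold limit, and no member was past 2-fold higher beside 2.86% of genes. Cluster 0, of monocyte-like cells with 2866 TNF+ and 32 TNF- cells, held Vegfc at 106 CPM (TNF-) and 177 CPM (TNF+), and cluster 15, with 262 TNF- and 26 TNF+ cells, at 232 and 294 CPM. Past 2-fold lower were Flt1, Flt4, Kdr, Tek and Vegfa, 5 of the 10 members beside 15.6% of genes with the median gene at -0.11 on the log2 scale. Kdr (5.88 and 1.92 CPM), Tek (6.07 and 0.73 CPM) and Flt4 (9 and 14 UMIs) were low, near the T cell level where Kdr was at 4.64 and 0.85 CPM and Tek at 5.63 and 1.28 CPM, and Flt4 turned to 0.47 with equal weight per cell. Flt1, the VEGF receptor that monocytes carry, was at 116 and 26.7 CPM, a log2 ratio of -2.12 (-2.24 to -2.01), and Vegfa at 12.8 and 3.56 CPM. In cluster 22, led by Chil3 and Ear2, genes of alveolar macrophages, Flt1 was at 494 and 211 CPM.

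Lung lymphocytes held 6 of the 9 members that reached 20 UMIs past 2-fold lower, Angpt1, Flt1, Flt4, Kdr, Tek and Vegfa, beside 9.65% of genes, and none higher beside 5.88%, with the median gene at -0.14 on the log2 scale. Their vascular receptor levels were low in both libraries, Kdr at 4.69 and 0.79 CPM and Tek at 6.61 and 0.97 CPM. Over whole lung the same 2 genes went from 182 to 9.82 CPM and from 283.5 to 5.84 CPM. Nrp1, which regulatory T cells carry, was at 39.3 and 67.6 CPM. It lay at 281 and 261 CPM in T cell cluster 4 and at 12.2 and 11.3 CPM in T cell cluster 6. Cluster 4 was led by the general T cell genes Cd3g, Trbc2 and Themis, with Ikzf2 and Ctla4 lower among its 10 leading genes. Cluster 4 held 213 TNF- and 819 TNF+ cells.

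Other genes of the 2 pathways were read from fixed lists within endothelium, where the median of all genes was 0.04 in the lung and -0.09 in the synovium on the log2 scale. Of all genes tested there, 9.18% were past 2-fold higher and 5.38% lower in the lung, and 7.79% and 8.97% in the synovium. Of the other ligands and receptors 2 of 12 were past 2-fold higher and 2 lower in the TNF+ lung (median -0.67). Nrp2, the co-receptor of VEGF-C, was at 48.2 and 223 CPM and Plxnd1, a semaphorin receptor, at 102 and 290.4 CPM, while Ptprb, the phosphatase that holds TIE2 in check, was at 2647 and 536 CPM and Vegfd at 14.7 and 5.24 CPM. In the synovium 2 of 11 were higher, Vegfb and Sema3a, and 2 lower, Svep1 and Vegfd (median -0.48), with log2 ratios of 1.21, 1.11, -2.65 and -1.97.

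Of genes that respond to VEGF signalling, 4 of 16 were past 2-fold higher and 1 lower in lung endothelium (median 0.03), and none of 17 higher and 2 lower in synovial endothelium (median -0.03). In the lung Hspg2, the basement membrane protein perlecan, was at 8.19 and 288 CPM and Nr4a1 at 11.6 and 78.0 CPM, while Esm1, a marker of sprouting tip cells, was at 67.1 and 13.8 CPM. Hspg2 was among the leading genes of an unnamed lung endothelial sub-cluster of 93 TNF+ and 2 TNF- cells. The part of those cells in its value was not tested. Lama4, a laminin chain of vessel walls, was at 56.2 and 332 CPM in the lung and at 354 and 146 CPM in the synovium, so its TNF+ level was above the TNF- level in 1 tissue and below it in the other. Pdgfb, by which endothelium recruits pericytes, was at 216 and 102 CPM in the synovium. Of the genes that signal below the receptors, 1 of 16 was higher in the lung, Src (median -0.07), and none of 15 was past 2-fold in the synovium (median -0.19).

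Angiogenesis inhibitors were past 2-fold higher in 4 of 9 and lower in none in lung endothelium (median 0.98), where 9.18% and 5.38% of all genes were, and higher in 2 of 11 and lower in 3 in synovial endothelium (median 0.10), where 7.79% and 8.97% were. In the lung the 4 were Vash1, Col18a1, Sparc and Pf4, with Sparc at 478 and 1235 CPM. Pf4 is also a platelet marker, and it was among the leading genes of a lung endothelial sub-cluster of 33 TNF- and 3 TNF+ cells. In the synovium it was among the leading genes of macrophage-like cluster 21. The part of such cells in the endothelial Pf4 values was not tested. In the synovium Thbs1 and Pf4 had log2 ratios of 1.30 and 1.14, and Dcn, a proteoglycan of fibroblasts, was at 376 and 31.6 CPM where fibroblast markers summed to 2765 and 1638 CPM.

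Vegfa is 1 of the genes that cells make when oxygen is low. Other genes of oxygen sensing and response were past 2-fold higher in 10 of 16 and lower in none in synovial myeloid cells (median 1.17), where 8.87% and 19.4% of all genes were and their median was -0.13. In synovial mesenchyme 7 of 17 were higher and 2 lower (median 0.61), where 8.66% and 16.3% of all genes were and their median was -0.26. In synovial endothelium 4 of 15 were higher and none lower (median 0.21), with Egln3, an oxygen sensor, at 1.20 and 14.9 CPM and Hif1a at 74.8 and 154 CPM. In synovial mesenchyme Ndrg1 was at 119 and 417 CPM and Hif1a at 74.5 and 248 CPM, while Adm, a vasodilator peptide, was at 115 and 50.1 CPM. In the lung 1 of 14 was higher and 2 lower in endothelium (median -0.26), 2 of 15 higher and 1 lower in mesenchyme (median -0.13), and none of 16 higher and 4 lower in myeloid cells (median 0.01). All genes were at 7.77% higher and 5.24% lower in lung mesenchyme, and at 2.86% and 15.6% in lung myeloid cells. Epas1 of the lung endothelium was at 3025 and 1113 CPM. The synovial cells compared differed in cluster, with 753 TNF+ and 9 TNF- cells in myeloid cluster 4 and 236 and 3 in fibroblast-like cluster 12. Oxygen was not measured, and its part in the Vegfa values was not tested.

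Across 46 cell types of the 4 libraries the genes with the pattern most like each member were named by Pearson's r of log2 CPM among 18877 genes. These points share libraries and free RNA, so r is a description. Kdr was nearest to Cdh5 (r = 0.93), the cadherin of endothelial junctions, Cyyr1 and Arhgef15, Flt4 to Ccm2l (0.93), Emcn and Nova2, Tek to Ramp2 (0.91), Nsg1 and Unc45b, and Flt1 to Adcy4 (0.83), Gpihbp1 and Rasip1. Nrp1 was nearest to Gm8098 (0.82), Nynrin and Gata6. Vegfc was nearest to 2900045O20Rik (0.63), Ace and Nhsl2, and Vegfa was nearest to Tgoln1 (0.70), Slc35f5 and Bnip3, a gene of the low-oxygen list. Angpt1 was nearest to Ptgis (0.73), Fhl1 and C1qtnf7, Pgf to Synpo2 (0.71), Hoxb2 and Wasf3, and Angpt2 to Arhgef7 (0.84), Hoxb2 and Hoxa2.

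Limits on the genes themselves apply throughout. The counts are 3′ tags summed per gene, so the soluble and the membrane forms of Flt1 could not be told apart. Angpt2 overlaps Mcph1, and Angpt1 overlaps Gm17473, each on the opposite strand.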

How the data were processed

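Single cells were measured by 10x Genomics 3′ RNA sequencing, with 1 library for each genotype in each tissue, 4 in all. The values the authors deposited are raw UMI counts of each gene in each cell, made with Cell Ranger 7.0.1 on the 10x mouse reference of build mm10 (GRCm38), a version that counts intronic reads by default. Of the 32285 genes, 32235 were matched by identifier in GENCODE vM21.

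Cells with 200 to 5000 genes and at most 20% mitochondrial UMIs were kept, the limits of the study. Doublets were otherwise left in. In an alternative, cells were dropped by Scrublet score, 0.8% per 1000 barcodes from the top. The 2 libraries of a tissue were clustered together with scanpy 1.11.5 (2000 variable genes, 30 principal components, 20 neighbours, Leiden resolution 0.8). A cell type name needed at least 5 markers, each 2-fold over the clusters of other lineages and found in 10% of the cluster's cells. A subtype name needed 3, taken over the sub-clusters of other subtypes. A cluster also stayed unnamed where its 10 leading genes held more markers of another class than of its own. The same held for a shallow cluster with no marker of its own among those genes. These naming thresholds were set after the data were seen, and the rebuilt names can differ from the study's.

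UMIs of a gene were summed per library and lineage and scaled by the total of all genes to give CPM, with exact Poisson intervals, exact binomial (Clopper-Pearson) intervals for shares and conditional binomial intervals for log2 ratios (scipy 1.17.1), all at 95%. A ratio against 0 UMIs used a floor of 3 UMIs per library. Lineages with under 50 cells in a library were not compared. The ratio step was tested on simulated data. No p-value was computed, since each group was 1 library of pooled mice.

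The members and gene lists were chosen with earlier results of these data known. Named were all 10 members in every lineage, for each member the 3 genes of highest correlation over cell types (log2 of CPM + 1, genes with at least 100 UMIs), and from each list up to 4 genes in each direction with the largest ratio past 2-fold within endothelium (within mesenchyme too for oxygen sensing). The clusters described apart were chosen after their values were seen. Alternatives covered the filters, doublets, resolution, clustering of each library by itself, scaling, cell weighting, thinning, the UMI minimum and the cells of some clusters. Promoter windows came from RefSeq tables of GRCm38.p6.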

Additional observations from a re-analysis of the deposited data

Results flagged for a closer look

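For Vegfa and Angpt2 the TNF+ library was past 2-fold on opposite sides of the TNF- library in the 2 tissues. The difference between tissues was not tested, since each group was 1 library. Vegfa had a log2 ratio of -4.03 in whole lung and 1.20 in whole synovium. It was at -1.18 in lung endothelium and 1.52 in synovial endothelium, at -1.85 in lung and 4.24 in synovial myeloid cells, and at -1.39 in lung and 1.83 in synovial lymphocytes. Angpt2 had a log2 ratio of -1.75 in whole lung and 2.36 in whole synovium. It was past 2-fold in no lung lineage that was compared. In lung endothelium Angpt2 was at 25.9 CPM for TNF- and 23.6 CPM for TNF+ cells, and in synovial endothelium at 35.7 and 84.8 CPM. Endothelium was 32.5% of cells in the TNF- lung and 4.40% in the TNF+ lung.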

How the results depend on the processing

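Over the alternatives that kept every cluster and cell type, 398 of 453 values of single members past 2-fold stayed so and 6 reversed. Of these, the minimum of 100 UMIs kept 44 of 54, and it could reverse none because it leaves each ratio unchanged. Thinning to 500 UMIs kept 24 of 47 and reversed 2. Median-of-ratios scaling in place of total UMIs moved no count of members by over 1.5 times. No paired analysis was possible because each group was 1 library, and for the same reason no library could be left out. Reversed were Flt1 in lung mesenchyme without the filter on cells (-1.40), Flt1 in synovial lymphocytes with doublets removed (0.57) or cells thinned to 500 UMIs (0.86), Flt4 in lung myeloid cells (0.47) and Kdr in synovial mesenchyme (0.17) with equal weight per cell, and Angpt2 in synovial myeloid cells after thinning (-0.97). The cause was not tested.

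The number of members past 2-fold was 3 in lung mesenchyme, 2 in lung epithelium, 5 in lung myeloid cells, 6 in lung lymphocytes, 4 in lung endothelium, 5 in synovial mesenchyme, 7 in synovial myeloid cells and 3 in synovial lymphocytes. It became 5 in lung mesenchyme, 6 in lung epithelium and 5 in synovial lymphocytes without the filter on cells, and 1 in lung epithelium with the stricter filter (500 genes, 10% mitochondrial UMIs). Removing doublets left 4 in synovial myeloid cells, and clustering each library by itself left 1 in lung epithelium. Equal weight per cell gave 8 in lung endothelium, 3 in lung myeloid cells and 4 in lung epithelium. That setting had no interval, so its calls, also those of single members, rested on the 2-fold limit and the UMI minimum alone. A minimum of 100 UMIs left 3 in lung myeloid cells, 1 in lung epithelium and 3 in synovial myeloid cells. Thinning to 500 UMIs, which leaves few UMIs per gene, left 0 in lung mesenchyme and synovial lymphocytes, 1 in lung myeloid cells, lung epithelium and synovial myeloid cells, and 2 in lung lymphocytes and synovial mesenchyme. Pgf in synovial endothelium was then at 1.84 and Vegfc in lung mesenchyme at 0.41, neither past 2-fold by the rule.

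The share of receptor UMIs in endothelium became 85.9% (TNF- lung), 42.8% (TNF+ lung) and 63.4% (TNF- synovium) without the filter, and 96.0% in TNF- and 53.5% in TNF+ lung, 69.6% in TNF- and 93.7% in TNF+ synovium with doublets removed. It was 67.9% in the TNF- synovium at resolution 1.6, 93.9%, 68.2% and 93.5% (TNF- lung, TNF- synovium, TNF+ synovium) with each library clustered by itself, and 96.0%, 53.7% and 85.0% (TNF- lung, TNF+ lung, TNF- synovium) after thinning. The largest Vegfa share became 46.2% (TNF- lung endothelium), 42.9% (TNF+ lung epithelium), 86.2% (TNF- synovial mesenchyme) and 55.4% (TNF+ synovial myeloid cells) without the filter, and 89.7% in TNF- synovial mesenchyme with the stricter one. It was 55.7% (TNF- lung) and 59.5% (TNF+ synovium) with each library clustered by itself, and 59.0% (TNF- lung), 81.3% (TNF- synovium) and 56.2% (TNF+ synovium) after thinning.

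Some alternatives were chosen after seeing the data. Without macrophage cluster 4, 3 members were past 2-fold in synovial myeloid cells, Vegfa (2.61), Pgf (2.31) and Angpt1 (-1.55), while Angpt2 (0.93), Flt1 (-0.27), Kdr (-1.92) and Tek (-1.99) were not, the last 2 with under 20 UMIs. Without clusters 0 and 15, 4 members were past 2-fold in lung myeloid cells, with Vegfa at -1.08 and Flt1 at -2.73. Without epithelial cells the myeloid share of Vegfa in the TNF+ synovium was 71.1%. Depth limits the lung mesenchyme and epithelium of the TNF+ library and the synovial lymphocytes, where single members rest on few UMIs.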
